A study of Homo sapiens with 18 samples.

Results

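The genes described here encode the proteins of the cytosolic ribosome and were measured in HEK293T, a widely used line of human embryonic kidney origin. They were taken by symbol from the protein-coding genes of the RNA table: RPL or RPS followed by a digit, RPLP, or RPSA, without the kinases named RPS6K and without the paralogues that carry an L after the number. The rule found 79 of the 14177 genes in the table, of which 12554 are protein coding. Of these, 46 encode proteins of the large (60S) subunit and 31 of the small (40S) subunit. The remaining 2 fit the symbol rule but encode no ribosomal protein of their own: RPL36A-HNRNPH2 is a readthrough transcript, and RPS19BP1 encodes a protein that binds RPS19. RPL36A-HNRNPH2 was too low to be tested, so 78 genes were compared.

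The study compared parental HEK293T cells with cells in which CRISPR-Cas9 was used to knock out UBR7 (UBR7KO). UBR7 is a protein of the UBR box family that binds histone H3 and that the study's title names as a histone chaperone. RNA-seq covered 3 parental libraries, 2 libraries of the knockout line KO1 and 1 of the line labelled KO2. Whether each line is a single clone is not given in the sources used here. The descriptions hold a date code for 4 of the RNA libraries: parental replicate 1 and KO1 replicate 1 share a code that reads as a day in October, called the earlier code here, and parental replicate 2 and KO1 replicate 2 share one that reads as a day in December of the same year, called the later code. Parental replicate 3 and the library labelled KO2 carry no date code and were taken as an undated pair, which is an inference. ATAC-seq, which maps chromatin open to a transposase, covered 2 parental and 2 UBR7KO libraries, and the labels do not name the knockout line used for it. Both UBR7KO ATAC libraries carry in their descriptions the code that the RNA library labelled KO2 also carries; that this code stands for a line is not stated. ChIP-seq against GFP was made once, with 1 input library, in cells whose own UBR7 carries a GFP tag.

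A ribosome holds a single copy of nearly every one of these proteins, while the stalk proteins RPLP1 and RPLP2 are present as dimers bound to RPLP0. Cells therefore make the proteins in near-equal numbers, and much of that balance is set at translation and by the breakdown of proteins that are not built into a subunit. Nearly all of their mRNAs begin with a run of pyrimidines, the 5′ terminal oligopyrimidine (TOP) motif, through which mTOR signalling and the protein LARP1 control how strongly they are translated or stored. RPL5 and RPL11 also bind MDM2 together with 5S rRNA when ribosome assembly fails.

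The starts of the genes the results turn on are printed to show this shared motif. RefSeq promoter windows (GRCh38.p14) were found for 63 of the 79 genes. Leaving aside the readthrough symbol, 62 genes had 77 distinct listed starts. Each line gives 20 bases before and 10 bases from the annotated start, 5′ to 3′ on the gene's strand, and the capitals mark the unbroken run of C and T that begins with a C at the start itself.
RPS18 (chr6:33272055-33272084, plus strand): gatatcgcgtcacttccgctCTCTCTTCCa
RPS3A (chr4:151099608-151099637, plus strand): tcgcgcgactcccacttccgCCCTTTTggc
RPL31 (chr2:101002269-101002298, plus strand): ctcccacaatccttcgcgctCTTCCTTTCC
RPL41 (chr12:56116613-56116642, plus strand): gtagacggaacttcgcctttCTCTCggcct
RPL26 (chr17:8383184-8383213, minus strand): accggaagcagcgtgtagttCTCTTCCCTT
RPL36A (chrX:101390991-101391020, plus strand): ttccgtttgcctcgcggtttCTTTCTTTCC
RPS25 (chr11:119018334-119018363, minus strand): ccgtttctgagcagcgcttcCTTTTTgtcc
RPS6 (chr9:19380227-19380256, minus strand): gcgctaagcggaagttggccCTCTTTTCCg
RPLP0 (chr12:120201102-120201131, minus strand): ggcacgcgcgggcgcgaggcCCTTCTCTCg
RPSA (chr3:39406700-39406729, plus strand): cgtcatttcctgccgcctgtCTTTTCCgtg
RPS15 (chr19:1438376-1438405, plus strand): ataactgcgcaggcgcggacCaaagcgatc
RPS4X (chrX:72277239-72277268, minus strand): cgcgcgcagtctccagccccaatttctacg
The starts of RPS18 and RPS6 begin with 9 pyrimidines and that of RPL26 with 12, 10 of which lie in the printed window. The listed starts of RPS15 and RPS4X do not have such a run. A C followed by at least 4 of C or T stood at 46 of the 77 starts (59.7%), against 4.07% of all 35116 RefSeq starts and 5.12% of the starts of the protein-coding genes in the RNA table. TATAA lay from 40 to 21 bases before 7 of the 77 starts (9.09%), against 3.77% of all RefSeq starts and 2.46% of those of the protein-coding genes in the table.

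The motif CGGAAG, or CTTCCG where it is read on the other strand, is the core that proteins of the ETS family bind, and it stood within the 300-base window of 46 of the 77 starts (59.7%), against 19.5% of all RefSeq starts and 29.0% of the starts of the protein-coding genes in the RNA table. Any overlap with the other motifs searched was allowed. The 150 bases before the starts of RPS6, RPS18 and RPS7 are shown because RPS6 and RPS7 had GFP-UBR7 peaks near the start and RPS18 was the gene that fell furthest between the date codes. Capitals mark CGGAAG or CTTCCG.
RPS6 (chr9:19380237-19380386, minus strand): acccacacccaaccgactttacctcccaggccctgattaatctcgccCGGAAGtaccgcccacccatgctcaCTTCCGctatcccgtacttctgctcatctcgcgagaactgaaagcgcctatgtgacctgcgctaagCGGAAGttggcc
RPS18 (chr6:33271925-33272074, plus strand): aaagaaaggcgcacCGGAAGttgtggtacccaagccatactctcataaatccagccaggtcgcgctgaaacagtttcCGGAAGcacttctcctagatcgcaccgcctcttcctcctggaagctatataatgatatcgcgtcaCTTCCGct
RPS7 (chr2:3575110-3575259, plus strand): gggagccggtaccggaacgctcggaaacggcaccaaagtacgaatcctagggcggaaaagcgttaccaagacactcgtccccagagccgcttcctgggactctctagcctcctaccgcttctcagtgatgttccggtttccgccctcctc
RPS6 and RPS18 each held 3 matches in these 150 bases, and RPS7 held 0. A match is a description of the letters and not a measured binding site.

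The 6 RNA libraries held between 22153291 and 29811908 reads, so the members other than the lowest were read many times in each library. Levels are given as CPM, the reads of a gene divided by the library total and scaled to the same total in each library. CPM does not correct for transcript length, so levels were compared between libraries and not between genes. The table's UBR7 values were 55.0, 62.2 and 62.2 CPM in parental replicates 1, 2 and 3, 27.0 and 26.3 CPM in KO1 replicates 1 and 2, and 64.5 CPM in the library labelled KO2. UBR7 mRNA was thus low in both KO1 libraries and was not low in the library labelled KO2, so that library's label was not borne out by UBR7 mRNA, and a direction drawn from it carries this limit (p = 0.4, exact two-sided permutation test of 3 against 3, smallest possible 0.1). All 8 marker genes listed for HEK293T were in the table, at a summed 675 to 1073 CPM in parental and 747 to 1071 CPM in UBR7KO libraries. Of the markers of other cells, 0 of 4 keratinocyte, 1 of 5 blood and 3 of 6 fibroblast genes were in the table, at a summed 14.2 to 21.3 CPM (parental) and 7.35 to 15.0 CPM (UBR7KO) for the fibroblast genes. The labels do not say that replicates came from separate cultures, so p-values measure the spread between these libraries, which may be technical.

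The ribosomal protein genes took 4.14% to 5.73% of all reads. The share was 5.73%, 4.38% and 4.19% in parental replicates 1, 2 and 3, and 5.69% and 4.14% in KO1 replicates 1 and 2 and 4.29% in the library labelled KO2. Both libraries of the earlier code lay above the other 4, and parental and UBR7KO means were 4.77% ± 0.838 and 4.71% ± 0.855 (SD, n = 3 each). The large subunit took 2.49% to 3.41% and the small subunit 1.62% to 2.43% of the reads. The ratio of large to small subunit reads was 1.35, 1.50 and 1.59 in the parental libraries and 1.49, 1.50 and 1.50 in the UBR7KO libraries, so the lowest and the highest ratio were both parental. The mitochondrial rRNA genes and CTD-2328D6.1 took 21.6% to 26.3% of the reads, and leaving their reads out of the total gave shares of 5.41% to 7.46% with the libraries of the earlier code again the highest. In bulk RNA, fewer cells of a kind and less RNA per cell cannot be told apart.

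The gene with the most reads was RPS4X, the X-linked gene of a small subunit protein with a Y-linked counterpart, at a mean of 2999 CPM over the 6 libraries. It was followed by RPS6, the small subunit protein phosphorylated by the S6 kinases, at 1891 CPM and RPS2 at 1764 CPM. RPL17 at 13.2 CPM was among the lowest of the tested genes and RPL36A-HNRNPH2 stood at 1.02 CPM. RPL17 overlaps readthrough transcripts, so how the authors' counting split its reads is uncertain. The same holds in part for all of these genes, which have many processed pseudogenes. The ratio of the highest to the lowest library ran from 1.10 to 8.28 per gene, with a median of 2.13.

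**Figure D1:**
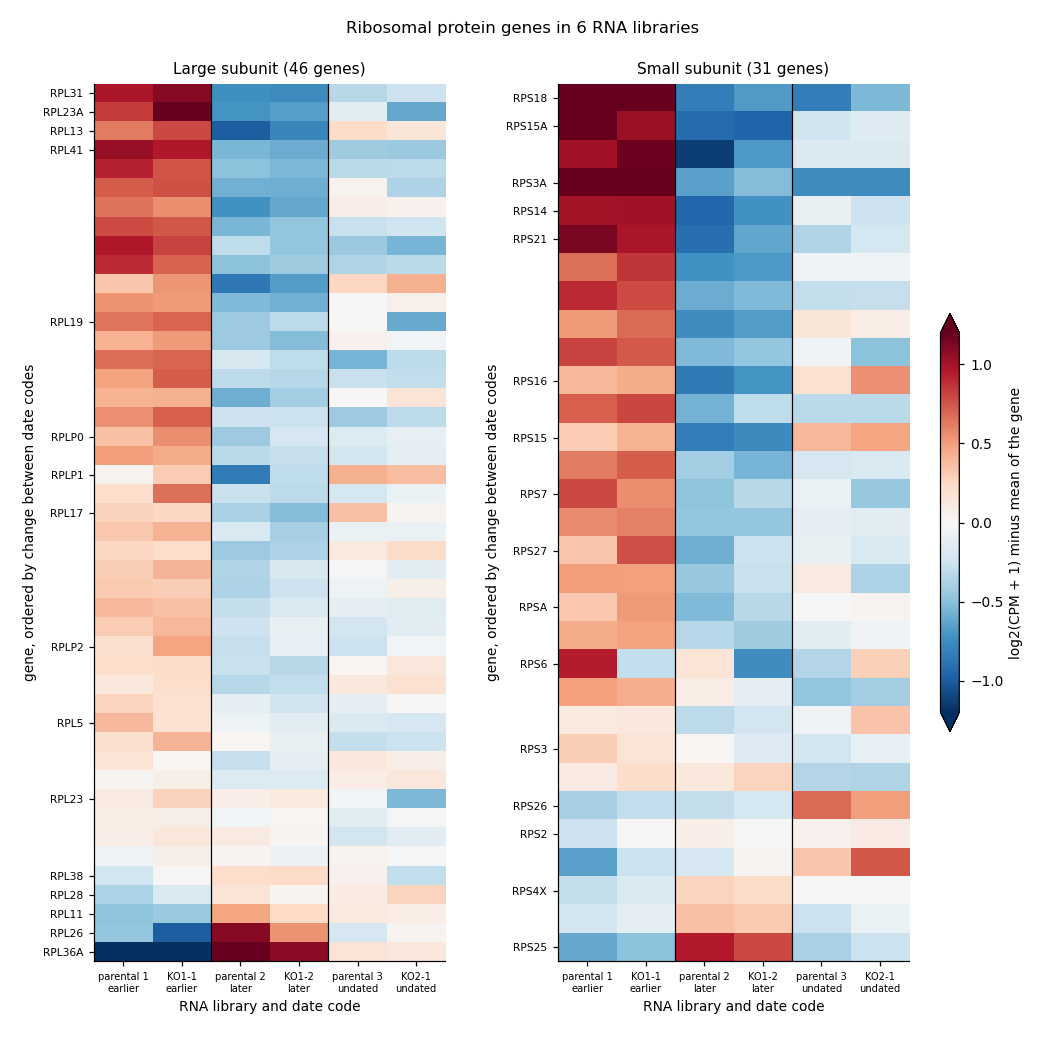
Level of each of the 46 large subunit and 31 small subunit genes in the 6 RNA libraries, as log2(CPM + 1) minus the gene's mean over the libraries (colour), with genes ordered by their difference between date codes, the more discussed ones labelled, and libraries ordered by pair. Most genes are high in both libraries of the earlier code, while RPL36A (333 and 337 CPM there) is low in them.

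The study's own comparison set the 3 UBR7KO libraries against the 3 parental ones. No ribosomal protein gene was called: 0 of 78 passed limma's test at a Benjamini-Hochberg adjusted p under 0.05, against a background of 0.0% of the 13697 genes tested. The count at an unadjusted p under 0.05 was also 0 of 78 (0.168% of all tested genes were higher and 0.343% lower), and edgeR's quasi-likelihood test and DESeq2 each called 0 of 78. The median difference, UBR7KO minus parental on the log2(CPM + 1) scale, was 0.02 for the 78 genes and 0.01 for all tested genes, and the median size was 0.07 against 0.11. The UBR7KO and parental libraries overlapped for all 78 genes, so that 0 were without overlap, against 2.48% of all tested genes. This overlap rule leaves the pairs out of account too.

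The mRNAs of the stalk proteins of the large subunit had mean differences slightly above 0 without passing the test. RPLP0, which anchors the stalk, read 793, 459 and 556 CPM in parental replicates 1, 2 and 3 and 917 and 542 CPM in the KO1 libraries and 582 CPM in the library labelled KO2. Each UBR7KO value was above its pair's parental value, but the groups overlapped widely, and the difference was 0.17 on the log2 scale (SE 0.30). RPLP2 differed by 0.23 (SE 0.25) and RPLP1 by 0.25 (SE 0.35). The changes of RPLP1 in the earlier, later and undated pairs were 0.27, 0.53 and −0.05. RPSA, the small subunit protein also known as the laminin receptor, differed by 0.14. RPL5 and RPL11, which with 5S rRNA form the particle that binds MDM2, differed by −0.10 and −0.07, and RPS3, at the mRNA entry of the small subunit, by −0.06. The lowest differences were those of RPS6 (−0.51, SE 0.39), RPL26 (−0.28, SE 0.49) and RPL36A (−0.17, SE 0.79).

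Read within pairs, the changes were small and their middle lay near that of all genes. The median of the 78 genes was 0.05 in the earlier pair, 0.04 in the later pair and 0.03 in the undated pair, against −0.0028, 0.07 and −0.02 for all tested genes. The standard deviation over the 78 genes was 0.22, 0.20 and 0.21, and over all tested genes 0.35, 0.28 and 0.38. In all 3 pairs, 15 genes were higher (19.2%, against 15.5% of all tested genes) and 4 were lower (5.13%, against 11.5%). The 15 were 7 large subunit genes, among them RPL6, RPL8, RPL29, RPL30, RPLP0 and RPLP2, and 8 small subunit genes, among them RPS10, RPS15, RPS16, RPS19, RPS28 and RPSA. The 4 lower genes were RPL5, RPL17, RPL39 and RPL41, all of the large subunit. None of these 19 passed the test in any of the comparisons of UBR7KO with parental cells.

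**Figure D2:**
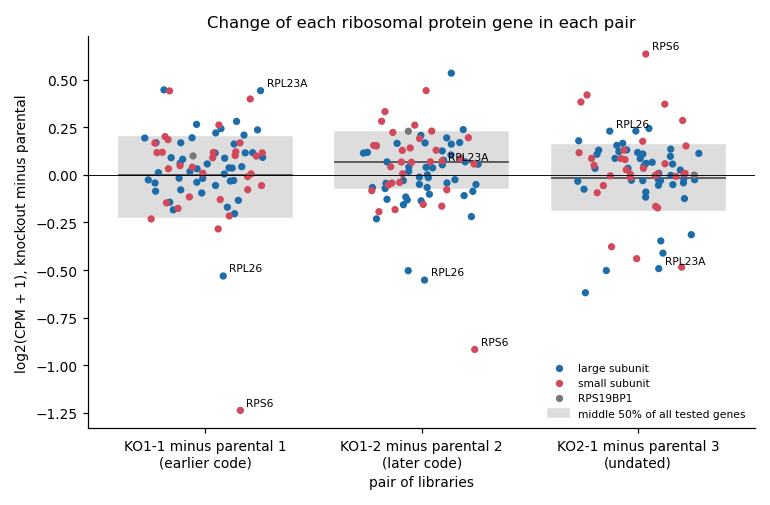
Change of each of the 78 tested ribosomal protein genes in the 3 pairs, UBR7KO minus parental on the log2(CPM + 1) scale; each point is a gene and the grey band holds the middle 50% of all 13697 tested genes. RPS6 and RPL26 lie low in both dated pairs, and RPS6 lies highest in the undated pair.

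Within the dated pairs, where line KO1 was compared with parental cells and the date code was a term of the fit, 2 ribosomal protein genes fell and 0 rose. The background was 1.36% of tested genes lower and 2.23% higher. RPS6 read 3378 CPM in parental replicate 1 and 1431 CPM in KO1 replicate 1, and 1974 CPM in parental replicate 2 and 1045 CPM in KO1 replicate 2. It was lower in KO1 in each pair, and both KO1 values lay below both parental values. On the log2 scale RPS6 fell by 1.08 (SE 0.14, n = 2 pairs, adjusted p = 3.81e-05 by limma). This fit leaves 1 residual degree of freedom per gene, so its SE and p lean on spread that limma borrows from other genes.

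RPL26, a large subunit protein near the exit of the peptide tunnel, read 709 and 490 CPM in the earlier pair and 2080 and 1418 CPM in the later pair, the parental library first. It was lower in KO1 within each pair, but its date codes differed by more than its genotypes, so the groups overlapped. RPL26 fell by 0.54 (SE 0.13, limma adjusted p = 0.0184). RPS27 (0.39) and RPLP1 (0.40) had the largest positive differences and were not called, with limma adjusted p = 0.0811 and 0.0867. Without the date code as a block, 0 ribosomal protein genes and 0 of all genes were called, and leaving out any 1 of the 4 libraries, which takes away the block, also left 0 ribosomal protein genes, with 1 to 20 of all genes called.

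**Figure D3:**
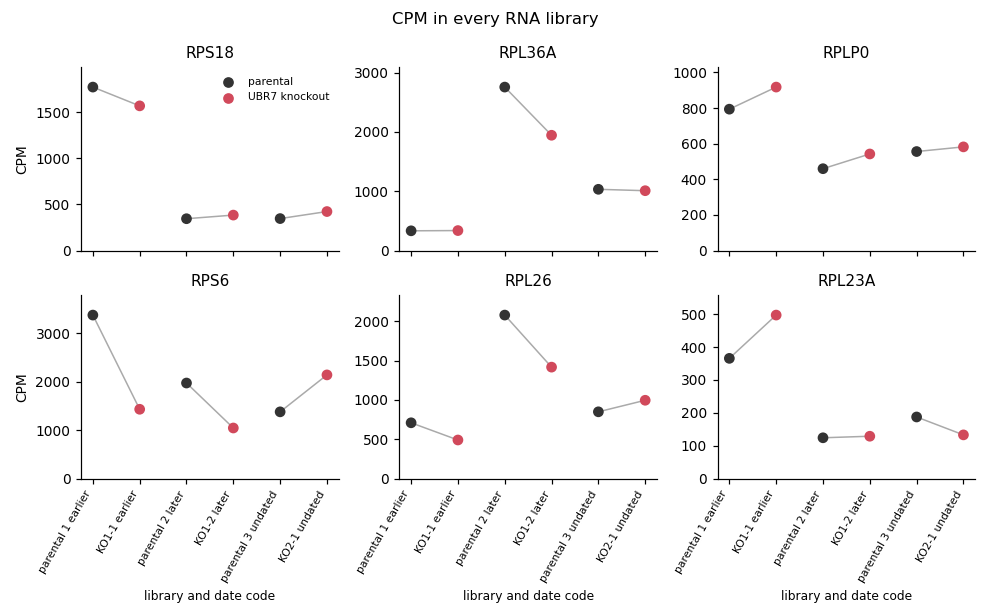
CPM of RPS18, RPL36A, RPLP0, RPS6, RPL26 and RPL23A in each of the 6 RNA libraries; each point is 1 library, joined by pair, and each panel has its own axis from 0. RPS6 falls from 3378 to 1431 and from 1974 to 1045 CPM in the dated pairs and is 1378 and 2142 CPM in the undated pair.

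RPS6 moved the other way in the undated pair, where it read 1378 CPM in parental replicate 3 and 2142 CPM in the library labelled KO2. Its changes in the earlier, later and undated pairs were −1.24, −0.92 and 0.64. The change in the undated pair minus that in the KO1 pairs was tested as an interaction, with 1 residual degree of freedom per gene. Of the 78 genes, 2 were called higher and 1 lower, against a background of 1.71% and 3.32%. RPS6 differed by 1.71 (SE 0.24, limma adjusted p = 3.65e-05) and was called under each of the 5 alternatives that were run. RPL26 differed by 0.77 (SE 0.22, adjusted p = 0.0433) and RPL23A by −0.74 (SE 0.22, adjusted p = 0.0469), both by limma and each called under 2 of the 5 alternatives. TMM scaling, edgeR's quasi-likelihood test and DESeq2 called RPS6 alone. Since the only library labelled KO2 is also the undated one, line and preparation cannot be told apart here. Of the 8 HEK293T marker genes, 4 were called lower and 1 higher in this same interaction. Of the 3 fibroblast markers tested, 2 were called lower in it, COL3A1 by −2.69 (limma adjusted p = 2.17e-05) and LUM by −1.87 (limma adjusted p = 0.00255), from levels of at most 8.06 and 2.28 CPM in any library. The part of both marker lists in the result was not tested.

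The genes next to RPS6 moved with it. RPS6 lies on chromosome 9 at chr9:19375713-19380252 on the minus strand, in the GRCh37-type coordinates of the deposited table. The 6 other tested genes within 1 Mb (RRAGA, HAUS6, PLIN2, DENND4C, ACER2 and 1 sense-overlapping transcript) had median changes of −0.92 and −0.69 in the dated pairs and 0.50 in the undated pair. All 6 were lower in KO1 in both dated pairs, and 5 of the 6 were called lower. HAUS6, a subunit of the augmin complex of the spindle, fell by 1.14 (limma adjusted p = 2.36e-06). DENND4C, whose annotated end lies next to the end of RPS6, fell by 0.82 (adjusted p = 0.000246 by limma).

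The change was one-sided along the chromosome. Of the 8 tested genes from 1 to 3 Mb after RPS6, among them MLLT3, FOCAD and MTAP, 6 were called lower in the dated pairs, with medians of −0.86 and −0.96, and 0.46 in the undated pair. Of 32 genes from 3 to 15 Mb after RPS6, 15 were called lower, with medians of −0.53, −0.50 and 0.03. Of 10 genes from 1 to 5 Mb before RPS6, 0 were called lower, with medians of −0.04, 0.07 and −0.16, and of 19 genes from 5 to 15 Mb before it 0 were called lower as well. In the dated pairs RPS6 therefore sits near a border between a stretch with no called gene and a stretch in which many genes fell with it. In the interaction, PTPRD (−2.27) and GLDC (0.99), both from 5 to 15 Mb before RPS6, were called.

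**Figure D4:**
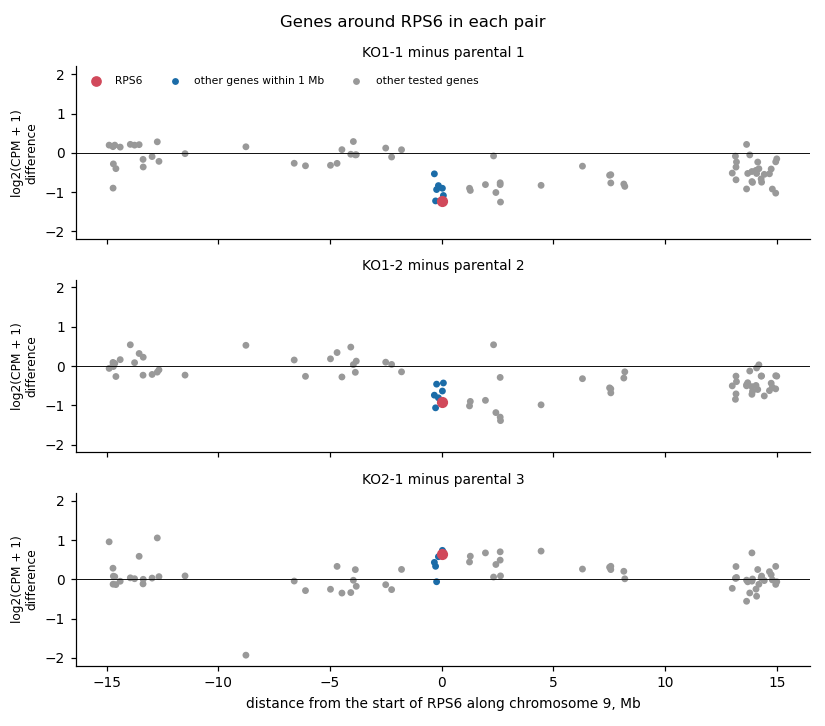
Change of the tested genes on chromosome 9 against the distance of their start from that of RPS6 in Mb, in the 3 pairs (UBR7KO minus parental, log2(CPM + 1) scale); each point is a gene and RPS6 is marked. In both dated pairs nearly all genes within 1 Mb of RPS6 and after it lie below 0, and in the undated pair most of those within 3 Mb after it lie above 0.

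RPL26 and RPL23A lie in different parts of chromosome 17, and each changed in the direction of its surroundings in the dated pairs. RPL26 (chr17:8280838-8286531, minus strand) changed by −0.53, −0.55 and 0.23 in the earlier, later and undated pairs. The 225 other tested genes in the first 20 Mb of the chromosome had medians of −0.25, −0.23 and 0.0047. RPL26 thus changed by more than they did, and in the undated pair their median lay near 0. From the median of the other genes in its own 10 Mb, RPL26 differed by −0.31, −0.32 and 0.20. RPL19, RPL23, RPL23A, RPL27 and RPL38 lie beyond 20 Mb and had median changes of 0.16, 0.04 and −0.49, where the 616 other tested genes had 0.08, 0.11 and −0.35. RPL23A (chr17:27046411-27051377, plus strand) read 365 and 497 CPM in the earlier pair, 124 and 129 CPM in the later pair and 187 and 133 CPM in the undated pair, the parental library first. RPL19 and RPL23 had interactions of −0.71 and −0.60 that were not called (limma adjusted p = 0.0614 and 0.126).

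Over all 78 genes, taking away the median change of the other genes in the same 10 Mb of the chromosome lowered the standard deviation of the changes. The standard deviation went from 0.22 to 0.19 in the earlier pair, from 0.20 to 0.18 in the later pair and from 0.21 to 0.16 in the undated pair. The median size of the change hardly moved, from 0.116 to 0.109 in the earlier pair and from 0.115 to 0.125 in the later pair. In the undated pair it went from 0.0884 to 0.0850. The typical change was thus about as large with the surroundings taken away as without. Within 0.2 of their surroundings lay 58, 61 and 66 of the 78 genes. RPS6 changed more than its own 10 Mb interval, whose medians of −0.27, −0.15 and −0.03 join genes from both sides of the border. The 78 genes lie on 21 chromosomes, and chromosome 19 holds more of them than any other, with 12.

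The difference between the date codes was far larger than that between genotypes. Comparing both libraries of the later code with both of the earlier one, with genotype as a term, 59 of the 78 genes were lower and 8 were higher, against a background of 28.6% of tested genes lower and 12.5% higher. The median difference was −0.81 for the 78 genes and −0.16 for all tested genes. Of the 46 large subunit genes 35 were lower and 5 higher (median −0.69), and of the 31 small subunit genes 23 were lower and 3 higher (median −1.05). The libraries of the codes did not overlap for 72 genes, 62 below and 10 above, against 44.0% and 21.7% of all tested genes. What the codes stand for is not stated in the labels, so date, culture and library preparation cannot be told apart. The fit for the codes also leaves 1 residual degree of freedom per gene, so its p-values lean on spread that limma borrows from other genes.

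Scaling moved the middle of all genes in this comparison. With TMM scaling the median of all tested genes went from −0.16 to −0.02, and the share of lower genes among those called went from 69.6% to 50.0%. The median of the 78 genes became −0.66, with 52 lower and 8 higher, against 19.5% of all tested genes on each side. With reads of mitochondrial rRNA and CTD-2328D6.1 left out of the totals, 57 were lower and 8 higher, against 26.5% and 14.9%. Leaving out 1 library at a time gave 43 to 54 lower and 4 to 8 higher: 4 higher without KO1 replicate 2, 4 without parental replicate 2 and 5 without parental replicate 1. Over all tested genes these fits called 1144 to 2334 lower and 534 to 1064 higher of 13697.

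Small subunit genes led the lower side. RPS18, a protein of the head of the small subunit, read 1775 and 1571 CPM in parental and KO1 replicate 1, 346 and 385 CPM in parental and KO1 replicate 2, and 347 and 423 CPM in the undated pair. Both libraries of the earlier code stood well above the other 4, whose values lay close together. RPS18 was lower, at −2.19 (SE 0.13, adjusted p = 3.15e-11 by limma). RPS3A followed the same pattern with 723 and 594 CPM under the earlier code, 164 and 180 CPM under the later code, and 154 and 153 CPM in the undated pair, a difference of −1.93.

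RPS15A was also low under the later code and stood in between in the undated pair. RPS15A read 479 and 412 CPM under the earlier code, 105 and 102 CPM under the later code and 170 and 181 CPM without a date code (difference −2.09). RPS14, a platform protein of the small subunit, and RPS21 differed by −1.84 and −1.82. On the large subunit the lowest differences were those of RPL31 (−1.78), RPL23A (−1.75), RPL13 (−1.59) and RPL41 (−1.58), the gene of one of the shortest human proteins.

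The stalk genes moved in the same direction, RPL5 did so by less, and RPL11 did not. RPLP0 was lower, at −0.77, RPLP1 at −0.75 and RPLP2 at −0.52, and RPSA was lower, at −0.85. RPL5 was lower, at −0.38 (limma adjusted p = 0.0254), and the call was lost under TMM scaling (−0.23, adjusted p = 0.265). RPL11 went the other way, with 872 and 899 CPM under the earlier code, 1696 and 1445 CPM under the later code and 1328 and 1300 CPM in the undated pair (0.82). RPS6 was lower, at −0.61, and its difference was 0.0045 without parental replicate 1. RPS3 differed by −0.29 and was not called (limma adjusted p = 0.0763).

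The 8 genes that were higher under the later code included RPL36A, RPL26, RPS25, RPL11, RPS4X, RPL28 and RPL38. RPL36A, a large subunit protein on the X chromosome, read 333 and 337 CPM under the earlier code, 2754 and 1943 CPM under the later code, and 1032 and 1008 CPM in the undated pair. The 3 pairs did not overlap. The libraries were close to each other in the earlier and in the undated pair, and further apart in the later pair. RPL36A was higher by 2.79 (SE 0.14, limma adjusted p = 4.16e-12), the largest difference among the 78 genes in either direction. RPL26 was higher by 1.54, with 709 and 490 CPM against 2080 and 1418 CPM. RPS25, a small subunit protein needed for initiation at some viral internal entry sites, read 379 and 411 CPM, 1121 and 1000 CPM, and 443 and 485 CPM in the undated pair (1.42). RPS4X (0.47), RPL28 (0.38) and RPL38 (0.32) were among the smaller ones.

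The start motif was found among the lower and the higher genes alike. Of the 46 genes with a listed start of C and at least 4 pyrimidines, 34 were lower and 6 higher (median −0.71), and of the 16 with a RefSeq start but no such run 13 were lower and 1 higher (median −0.91). Both RPS18, with 9 pyrimidines, and RPL36A, with 10, carry the run shown above. The 7 genes with TATAA before the start (RPL10, RPL24, RPLP0, RPS9, RPS18, RPS27 and RPS28) were all lower, between −2.19 and −0.61. Most genes without it were lower as well: of the 55 with a RefSeq start but no TATAA, 40 were lower and 7 higher. Of the 40 with CGGAAG on either strand of a start window, 29 were lower and 7 higher. Of the 22 without CGGAAG, 18 were lower and 0 higher. These counts were not tested.

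Other genes of the translation machinery lay nearer to the background of 28.6% lower and 12.5% higher for the date codes. Of 74 mitochondrial ribosomal protein genes tested, 26 were lower (35.1%) and 13 higher (17.6%; median −0.23), with MRPL12 at −1.94 and MRPS34 at 0.83. Of 23 other genes with TOP mRNAs, 7 were lower (30.4%) and 4 higher (17.4%; median −0.17), which became 4 lower and 5 higher with DESeq2, against 11.2% and 13.9% of all tested genes. The lower ones included EIF3L (−0.92), a subunit of an initiation factor, and the higher ones were led by HNRNPA1 (0.76), PABPC1 (0.57) and NPM1 (0.52). GNB2L1, the scaffold protein RACK1 of the small subunit, was lower, at −0.67, and FAU, a fusion precursor that holds another small subunit protein, differed by −0.22 and was not called.

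Genes of ribosome assembly lay on the other side. Of 60 assembly factors tested, 24 were higher (40.0%) and 11 lower (18.3%; median 0.22), with NCL, the nucleolar protein nucleolin, at 1.30 and DDX10 and SBDS at 1.05 and 1.04, and PPAN and BYSL at −0.86 and −0.80. With TMM scaling the counts were 32 higher and 6 lower, while those of the mitochondrial ribosomal protein genes became 16 lower and 17 higher, against 19.5% of all tested genes on each side. Of 44 translation factors, 11 were higher and 10 lower, led by EIF5B (1.39) and EIF6 (−1.65), which keeps the large subunit from joining the small one too early. In the comparison of the 3 UBR7KO with the 3 parental libraries, 0 genes of each of these lists were called by limma, and at an unadjusted p under 0.05 only 1 translation factor was higher.

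Of the 8 paralogues left out by the rule, 4 were lower and 1 was higher under the later code. The higher one was RPL36AL, the autosomal copy of RPL36A, which read 44.3 and 78.1 CPM, 284 and 215 CPM, and 175 and 168 CPM in the earlier, later and undated pairs (2.05, limma adjusted p = 0.0336). RPL36A and RPL36AL thus had the same order of pairs; they encode nearly the same protein, and how the counting split reads between them is uncertain. Of 14 ribosomal protein pseudogenes tested, 6 were lower and 2 higher. RPS3AP5, a pseudogene of RPS3A, was lower, at −2.67. The 20 pseudogenes in the table summed to 167 and 157 CPM under the earlier code, 88.8 and 93.3 CPM under the later code and 118 and 137 CPM in the undated pair. They moved in the direction of most of the 78 genes, and the part of reads shared with pseudogenes in the result was not tested.

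The undated pair stood apart in some genes. Against all 4 dated libraries, limma called 0 of the 78 genes (background 0.0073% higher and 0.0219% lower). There were 2 on each side when unadjusted p under 0.05 was used (of the 13697 tested genes, 890 were higher and 2651 lower, a larger share on each side). The edgeR quasi-likelihood test called RPS26 and DESeq2 called 2 genes higher, RPS26 among them. Of all tested genes, edgeR called 0.847% and DESeq2 6.51% higher, so the 2 of 78 lay below DESeq2's background. RPS26, which lines the mRNA exit channel of the small subunit, read 40.3 and 43.2 CPM under the earlier code, 43.7 and 45.8 CPM under the later code, and 85.9 and 76.0 CPM in parental replicate 3 and the library labelled KO2. Both undated libraries lay above all 4 dated ones, and the difference was 0.89 (SE 0.16, adjusted p = 0.0628 by limma). Without parental replicate 2, limma called RPS26 (adjusted p = 0.0471). That fit also called more of all tested genes, 0.599% higher and 3.63% lower, against 0.0073% and 0.0219% with all 6 libraries.

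Against each code alone, comparisons added after the data had been seen, the undated pair stood between the codes for many genes. Against the earlier code it was lower for 47 genes and higher for 6 (background 28.3% and 9.58%), with a median of −0.49 for the 78 genes and −0.23 for all genes. TMM scaling moved these medians to −0.24 and −0.0047 and the counts to 27 lower and 11 higher (background 16.7% and 18.7%), and the share of lower genes among all called went from 74.7% to 47.1%. Against the later code it was higher for 22 and lower for 6 (background 11.0% and 15.4%; 28 and 4 with TMM scaling, against 15.1% and 12.2%, where the share of lower genes among all called went from 58.3% to 44.7%). RPS3A and RPS18 stayed low in the undated pair (−2.09 and −2.12 against the earlier code). RPS15 (1.23), RPS16 (1.15) and RPL13 (1.07) were higher in the undated pair than under the later code. RPS25 (−1.19) and RPL36A (−1.18) were lower.

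GFP-UBR7 ChIP-seq peaks lay within 500 bp of the start of 25 of the 79 genes (31.6%), against 22.1% of the 12554 protein-coding genes of the table. The authors' list holds 5895 peaks from 1 library, so there is no replicate. The share was 24.1% against 12.2% within 100 bp and 32.9% against 27.4% within 2000 bp. Among genes with an ATAC peak at the start in at least 1 library, it was 33.8% of 74 against 25.7%. Both subunits had such genes, 15 of 46 for the large and 9 of 31 for the small one, and RPL36A and RPL36A-HNRNPH2 share a single peak.

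RPS7 held the best ranked peak of these genes, at position 247 of the 5895 by the authors' score. The peak spans chr2:3622571-3623047 and its centre lies 14 bp from the annotated start of RPS7. RPL37 followed at rank 252 (chr5:40835255-40835633), then RPL21 at rank 567 (chr13:27825371-27825765), RPS6 at rank 607 (chr9:19379746-19380176) and RPL13 at rank 1319 (chr16:89627049-89627289). The peak of RPS6 lies inside the gene, with its centre 291 bp after the start. RPL26 and RPL36A also had peaks, at ranks 1338 and 1380. The 24 tested genes with a peak and the 54 without had median differences between UBR7KO and parental libraries of 0.02 and 0.03, and between date codes of −0.81 and −0.80.

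The number of starts with an ATAC peak differed widely between libraries of the same genotype. The UBR7KO ATAC libraries share their code with the RNA library labelled KO2, in which UBR7 mRNA was not low, and this limit holds for each UBR7KO count here. Within 500 bp of the start, 39 and 74 of the 79 genes had a peak in parental libraries 1 and 2 and 57 and 72 in UBR7KO libraries 1 and 2. The same share over the protein-coding genes was 53.8%, 79.6%, 68.7% and 82.2%, and the lists held 10507, 38529, 15310 and 45920 peaks in that order. The parental and the UBR7KO values overlapped: the lowest and the highest count were both parental. In the sets that the authors intersected over replicates, 39 genes had a peak in parental and 57 in UBR7KO cells, against 53.1% and 68.0% of the protein-coding genes. The median −log10 q of the peaks at these genes was 1.02, 1.54, 1.30 and 2.52, and at 10 or above stood 0, 1, 0 and 2 genes.

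Peaks in all 4 ATAC libraries were found at 36 of the 79 starts (45.6%, against 50.9% of protein-coding genes). Another 23 had a peak in 3 libraries and 14 in 2, among them RPS18, whose peaks came from parental library 2 and UBR7KO library 2. RPL30 had a peak in parental library 2 only. RPL23 had peaks in both parental libraries and in neither UBR7KO library. Its mRNA lay at 451 CPM in the library labelled KO2 against 639 to 792 CPM in the other 5. RPL23 changed by −0.50 in the undated pair. RPL19, RPL23A, RPL27 and RPL38, on the same chromosome, changed by −0.62, −0.49, −0.41 and −0.35 in that pair, and RPL26 by 0.23. Each of them had a peak in UBR7KO library 2. Whether the peaks and the mRNA of RPL23 are linked was not tested. RPL4, RPL7, RPL10, RPL22 and RPL36 had no peak at the annotated start. All 5 had a peak between 500 bp before the start and the end of the gene in each of the 4 libraries.

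**Figure D5:**
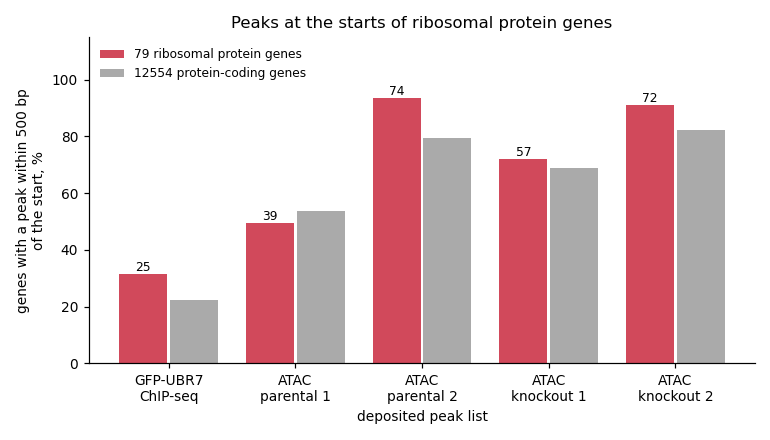
Share of genes with an ATAC or GFP-UBR7 peak within 500 bp of the start, in percent, for the 79 ribosomal protein genes and the 12554 protein-coding genes of the table; each bar is 1 library, the axis starts at 0 and the numbers above the bars count ribosomal protein genes. The bars of the parental ATAC libraries (39 and 74 genes) enclose those of the UBR7KO libraries (57 and 72 genes), and the GFP-UBR7 bar stands at 31.6% against 22.1%.

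In the authors' deposited table, which compares UBR7KO with parental cells over the same libraries, 0 of the 79 genes had an adjusted p under 0.05 and 0 had a p under 0.05. The log2 fold changes of these genes in the authors' deposited table ran from −0.50 to 0.46 with a median of 0.0081, and 6 of its 14177 genes had an adjusted p under 0.05.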

How the data were processed

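Of the 18 samples of the series, the 6 RNA-seq, 4 ATAC-seq and 2 ChIP-seq samples were used; the CUT&RUN samples were not analysed here. Per the submitters' processing notes, HTSeq 0.6.1, TopHat2 2.1.0, Bowtie2 2.3.1, SAMtools 1.3.1, Trimmomatic 0.36, MACS2 and edgeR were among the tools and hg38 and hg19 among the builds, with no role given for any; how reads that map to several places were counted is not given in the sources used here. The build of the table is not named. RPL8 lies beyond the end of chromosome 8 of GRCh38, so positions are called GRCh37-type.

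Gene levels in the deposited RNA table are CPM, which the authors scaled to each library's total. All CPM values were whole multiples of 1 read within 1e-06, so library totals of 22153291 to 29811908 reads and whole read counts were recovered (100% of values). Counting error is small beside the differences between libraries for all but the lowest genes, RPL36A-HNRNPH2 among them. The table also holds the authors' log2 fold changes, the score of their likelihood ratio test, p-values and adjusted p-values, per the file headers. The deposited ATAC peaks carry −log10 q values and were called by the authors separately per library. The deposited sets intersected over replicates and the GFP-UBR7 peaks carry a score of unstated scale, used only for ranks.

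Differences were computed on log2(CPM + 1) with limma 3.58.1 (trend, robust) over 13697 genes (more than 1 CPM in 3 or more libraries), with Benjamini-Hochberg adjustment over all of them and a threshold of 0.05; the scale understates changes of low genes. The scripts were tested on simulated data. Alternatives were a pseudocount of 0.1, no filter, TMM scaling, totals without mitochondrial rRNA and CTD-2328D6.1, edgeR 4.0.16 quasi-likelihood and DESeq2 1.42.0 on recovered reads, blocks, and libraries left out. UBR7 was compared by an exact permutation test. Peaks were counted at starts within 500 bp, beside the same count over all protein-coding genes. No test of a gene list was run. RefSeq windows (GRCh38.p14) were matched by symbol.

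Date codes in the descriptions pair the dated libraries. Deviations from the group means over all genes correlated at r = 0.758 and 0.736 within these pairs and 0.633 within the undated pair, and between −0.443 and −0.251 for other combinations; centring each group makes these values depend on each other.

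Named genes were UBR7; ribosomal protein genes called in a comparison (up to 10 a direction); the 3 highest and 3 lowest changes of each comparison and the 3 highest and lowest mean CPM; the 5 best ranked GFP-UBR7 peaks; RPLP0, RPLP1, RPLP2, RPSA, RPS6, RPS3, RPL5 and RPL11; and up to 3 called genes a direction of each other list. A few genes that the rule names are not reported here. Genes named beside a small count, neighbours of RPS6, and the genes of the ATAC and motif counts were picked with their values in view. The ribosomal protein genes and all lists were chosen with earlier results of these data known.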

Additional observations from a re-analysis of the deposited data

Results flagged for a closer look

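For 3 of the 78 ribosomal protein genes the change in the undated pair differed from the change in the KO1 pairs. This was 3.85%, against 5.03% of all tested genes. The difference was tested by limma with 3 pairs and 1 residual degree of freedom per gene, and the undated pair holds the library labelled KO2. TMM scaling, edgeR's quasi-likelihood test and DESeq2 called RPS6 alone. RPS6 differed by 1.71 and RPL26 by 0.77, both lower in KO1 than in parental cells in 2 of 2 dated pairs and higher in the undated pair. RPL23A differed by −0.74, with changes of 0.44 and 0.05 in the dated pairs and −0.49 in the undated pair. UBR7 mRNA was not low in the library labelled KO2, and line and preparation cannot be told apart.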

How the results depend on the processing

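The comparison of UBR7KO with parental libraries kept 0 called ribosomal protein genes under every alternative run, the replicate block included (0 members and 0 of all genes called). In the dated pairs, the fit with no replicate block called 0 genes lower in place of 2, and leaving out 1 library gave 0 to 0; such fits have no block, and the lone library of an arm is assumed to vary like the others. With 1 library left out RPL26 ran from −1.32 to 0.23, reversed without KO1 replicate 1 (0.22) and without parental replicate 2 (0.23). TMM scaling, edgeR's quasi-likelihood test and DESeq2 each gave 1 higher and 0 lower for the interaction; with a library left out it has no residual degrees of freedom, so leave-one-out was not run. For the date codes, leaving out 1 library (chosen after seeing the data) gave 4 to 8 higher and 43 to 54 lower, and RPS6 ran from −1.23 to 0.0045, reversed without parental replicate 1. The undated libraries against the dated ones gave 2 higher with DESeq2, 1 with edgeR and 0 to 1 with a library left out. Against the earlier code, TMM scaling gave 11 higher and 27 lower, against 18.7% and 16.7% of all tested genes. In the same comparison edgeR gave 10 higher and 27 lower, against 18.4% and 15.9% of all tested genes. Peaks with −log10 q of at least 10 left 0, 1, 0 and 2 of the starts with an ATAC peak. Of the values of single named genes, 143 of 143 (UBR7KO against parental), 122 of 132 (dated pairs), 59 of 65 (interaction), 244 of 275 (date codes), 164 of 168 (undated against dated), 34 of 46 (undated against the earlier code) and 42 of 46 (undated against the later code) kept direction and call. Where the construction of an alternative does not show it, the cause was not tested. Depth limits the lowest genes and the readthrough symbol; ATAC depth per library is not given in the peak lists.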
